A study of Homo sapiens with 9 samples.

Results

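The MHC class I and immunoproteasome genes followed here are 9 of the 20932 genes tested: the heavy chains HLA-B, HLA-C and HLA-E, the light chain B2M, the peptide transporter subunits TAP1 and TAP2, the bridging chaperone TAPBP (tapasin), and the immunoproteasome subunits PSMB8 and PSMB9. They were chosen by name from the class I presentation pathway, with earlier results of these data known. All 9 were matched in the table of 61806 gene identifiers and all 9 passed the filter on low counts. The libraries came from HCT116 cells, a line established from a human colorectal carcinoma, transfected with ORM1 siRNA1#, with ORM1 siRNA2# or with a control siRNA, here called siRNA1, siRNA2 and control, with 3 libraries in each of the 3 groups. Every group, control included, received an siRNA with a lipid reagent, and all libraries carry the batch value Day 3. The labels do not say whether the 3 libraries of a group were separate cultures, so the p-values rest on the spread between libraries that may be technical repeats. ORM1 encodes an acute-phase plasma glycoprotein, and the question addressed was how expression in these cells differed after its knockdown.

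Class I molecules display peptides from inside the cell to CD8+ T cells and, in the case of HLA-E, also to receptors of natural killer cells. Proteasomes cut proteins into peptides, the transporter formed by TAP1 and TAP2 carries them into the endoplasmic reticulum, and tapasin holds the transporter beside the empty heavy chain and B2M until a peptide is bound. Interferon gamma induces much of this set through factors such as IRF1 and, for the class I genes, NLRC5, and the PSMB8 and PSMB9 it induces take the place of the constitutive proteasome subunits PSMB5 and PSMB6. Carcinoma cells often carry reduced amounts of these components.

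Of the 9 genes, 8 lie in the MHC region of chromosome 6 and B2M lies on chromosome 15. In GENCODE 29, on GRCh38, the records run as chr6:30489467-30494205 (plus strand) for HLA-E, chr6:31268749-31272130 (minus) for HLA-C and chr6:31269491-31357188 (minus) for HLA-B. TAP2 has chr6:32821833-32838780 (minus), PSMB8 chr6:32840717-32844703 (minus), TAP1 chr6:32845209-32853978 (minus), PSMB9 chr6:32844136-32859585 (plus), TAPBP chr6:33299694-33314387 (minus) and B2M chr15:44711487-44718877 (plus). The HLA-B record contains most of HLA-C on the same strand, although its principal transcript lies beyond it, from 31353872 on. The PSMB9 record overlaps the start of PSMB8 and all of TAP1 on the opposite strand, although its principal transcript begins at 32854161. Whether the counting used strand is not given in the sources used here, so reads in these overlaps cannot be assigned with certainty. Of all 31-base words in the principal transcript of HLA-B, 10.8% also occur in that of HLA-C, which limits how well reads of these heavy chains can be told apart.

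Promoter sequence was available for 8 of the 9 genes in RefSeq on GRCh38.p14, all but HLA-E. The windows printed hold the 250 bases before the first base of the gene in RefSeq, read on the gene's own strand. Capitals mark matches to 4 short motifs on either strand. RefSeq starts differ from those of the GENCODE principal transcripts. That of TAP1 begins at 32853978, so the whole TAP1 window lies inside it. Those of TAPBP and PSMB9 begin inside their windows, at 33314212 and 32854161. The TAPBP matches to GAAANNGAA therefore lie after its GENCODE start, not before it. The motifs were 2 interferon-response types, GAAANNGAA and GAANNGAAA, a kappa B type, GGANTNNCC, and a cyclic AMP response element type, TGACG. The interferon-response types can overlap each other. TAPBP is shown because its fall was called under both siRNAs in every alternative fit that was run, TAP1 and PSMB9 because their starts face away from each other across a short stretch, and HLA-B and HLA-C because these windows are so alike while HLA-B was called under siRNA2 and HLA-C was not.
TAPBP: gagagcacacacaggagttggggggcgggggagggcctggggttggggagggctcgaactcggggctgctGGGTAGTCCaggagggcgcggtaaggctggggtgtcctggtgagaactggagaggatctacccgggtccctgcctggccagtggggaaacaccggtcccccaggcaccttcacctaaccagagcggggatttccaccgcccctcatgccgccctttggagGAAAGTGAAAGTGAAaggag
TAP1: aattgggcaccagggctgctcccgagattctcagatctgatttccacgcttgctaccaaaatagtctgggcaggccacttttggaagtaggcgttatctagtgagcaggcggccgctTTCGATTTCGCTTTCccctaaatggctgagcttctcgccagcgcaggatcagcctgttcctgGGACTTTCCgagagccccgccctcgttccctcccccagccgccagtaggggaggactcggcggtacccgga
PSMB9: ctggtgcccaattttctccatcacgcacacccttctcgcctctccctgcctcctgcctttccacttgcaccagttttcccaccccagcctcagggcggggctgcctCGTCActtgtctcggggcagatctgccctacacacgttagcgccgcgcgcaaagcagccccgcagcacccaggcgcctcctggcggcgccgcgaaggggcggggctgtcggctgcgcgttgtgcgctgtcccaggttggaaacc
HLA-B: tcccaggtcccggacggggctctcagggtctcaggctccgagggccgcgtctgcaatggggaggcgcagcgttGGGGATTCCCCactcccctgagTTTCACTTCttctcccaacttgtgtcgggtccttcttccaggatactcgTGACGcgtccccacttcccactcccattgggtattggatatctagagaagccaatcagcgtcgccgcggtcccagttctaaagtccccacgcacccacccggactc
HLA-C: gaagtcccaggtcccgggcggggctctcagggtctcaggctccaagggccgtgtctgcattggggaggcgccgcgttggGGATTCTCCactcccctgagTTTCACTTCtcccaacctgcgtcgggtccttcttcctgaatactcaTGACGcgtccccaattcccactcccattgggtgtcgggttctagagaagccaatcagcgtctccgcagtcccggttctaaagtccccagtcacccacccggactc
These windows are chr6:33314079-33314328 (minus), chr6:32853705-32853954 (minus), chr6:32853942-32854191 (plus), chr6:31357180-31357429 (minus) and chr6:31272093-31272342 (minus). The TAPBP window ends in overlapping GAAANNGAA matches, 20 and 14 bases before the RefSeq start. TAP1 has them on the opposite strand, 133 and 127 bases before its RefSeq start. PSMB9 held none of the interferon-response letters in this window and 1 match to TGACG. The first bases of TAP1 and PSMB9 in RefSeq have 487 bases between them. The GENCODE principal transcripts begin closer together, at 32853978 and 32854161. The HLA-B and HLA-C windows matched at 226 of 254 aligned positions (89.0%), and each carries, in the same order, a kappa B type match, an interferon-response match and TGACG. B2M, TAP1, TAP2 and TAPBP held GAAANNGAA, as did 6.88% of 35116 promoters of the same length. HLA-B, HLA-C and TAP2 held GAANNGAAA, against 6.56% of all promoters. The kappa B type was found in B2M, HLA-B, HLA-C, TAP1 and TAPBP, against 12% of all promoters. TGACG was found in B2M, HLA-B, HLA-C, PSMB8, PSMB9 and TAP2, against 21.2%. PSMB8 and TAP1 each have 2 starts in this source, and a gene was counted where either start held a match. The PSMB8 match lies before the start at 32844679, and the window of its start at 32844047 held 0 matches. The other TAP1 start, at 32852761, held only a kappa B type match. A match is a description of letters, not a site in use.

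The libraries held 60698684 to 71431723 counts. Levels are given as counts per 1000000 (CPM) after TMM scaling between libraries, a change is on the log2 scale from the edgeR quasi-likelihood fit of all libraries with its standard error (SE), and a gene was called where its Benjamini-Hochberg adjusted p, over all 20932 genes tested, was below 0.05. The targeted gene ORM1 had 0, 0 and 5 counts under siRNA1 and 8, 0 and 12 under siRNA2, against 63, 56 and 59 in control, with adjusted p-values of 0.00287 and 0.019. The siRNA2 call was lost without siRNA2 replicate 1 or any 1 of the control libraries, with adjusted p-values up to 0.0573, and with DESeq2 or no count filter. ORM1 reads may be shared with the near-identical ORM2, which also averaged lower, at 0.141 CPM under siRNA1 and 0.106 CPM under siRNA2, against 0.733 CPM in control. The 9 epithelial markers summed to 3709.2 to 3883.2 CPM under siRNA1 and 3752.6 to 3938.5 CPM under siRNA2, against 4386.8 to 4693.9 CPM in control, with VIL1 at or near 0 throughout. Of the 8 epithelial markers tested, 2 rose and 4 fell under each siRNA. Among all tested genes 30.5% were called under siRNA1 and 26.7% under siRNA2. Of genes with at least 40 CPM in control, 56.4% and 54.3% were called. KRT8, KRT18, KRT19 and CLDN4 fell. EPCAM rose by 0.48 and 0.42 and CDH1 by 0.70 and 0.10 on the log2 scale (adjusted p = 3.7e-07, 2.13e-06, 2.46e-08 and 0.0419). Of 10 leukocyte markers, CD3D, CD3E, MS4A1 and TYROBP were at 0 in all libraries, and the list summed to 0.615 to 1.11 CPM under siRNA1 and 0.427 to 0.974 CPM under siRNA2, against 1.57 to 2.08 CPM in control. The 6 fibroblast markers summed to 48 to 50 CPM under siRNA1 and 41.5 to 44.7 CPM under siRNA2, against 51.8 to 59.5 CPM in control, nearly all of it COL1A1, with DCN, LUM and COL1A2 at or near 0. The 5 endothelial markers summed to 1.32 ± 0.066 CPM under siRNA1 and 0.861 ± 0.039 CPM under siRNA2, against 1.29 ± 0.38 CPM in control (SD, n = 3 each). The part of these differences in the results was not tested. In such bulk samples, fewer cells that express a gene and less RNA per cell cannot be told apart.

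HCT116 cells expressed most of the class I pathway but little of the immunoproteasome. Per kilobase of principal transcript, the control libraries held 252 ± 9.2 CPM of B2M, 149 ± 5.2 of HLA-C, 76.1 ± 1.9 of HLA-B and 54.1 ± 2.2 of HLA-E (SD, n = 3). They held 49.0 ± 0.34 of TAPBP, 38.1 ± 1.8 of TAP2 and 19.3 ± 1.2 of TAP1 on the same per-kilobase scale. The immunoproteasome subunits came last, with 6.27 ± 0.45 CPM per kilobase of PSMB9 and 0.586 ± 0.24 of PSMB8. No neighbours in this order overlapped in the ranges of their 3 control libraries, but the order rests on the transcript chosen for length. In CPM without length, B2M lay above 97.7% of all tested genes in control, TAP1 above 80.3%, PSMB9 above 43.6% and PSMB8 above 25.5%.

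In the edgeR fit, all called changes against control were falls, and small ones for most of the members called. Under siRNA1, B2M, TAP1, TAP2, TAPBP and PSMB9 fell, which is 5 of 9 called lower and 0 higher, against 14.8% of all tested genes called lower, 15.7% called higher and 30.5% called in either direction. Under siRNA2, HLA-B, HLA-E, TAP1, TAPBP and PSMB9 fell, again 5 of 9 lower and 0 higher, against 12.6% lower, 14.2% higher and 26.7% in either direction among all tested genes. In the mean of both siRNAs, HLA-E, TAP1, TAP2, TAPBP and PSMB9 fell, 5 of 9 with 0 higher, against 15.3% of all tested genes called lower, 16.2% called higher and 31.5% called in either direction. The median log2 change of the 9 genes was -0.20 under siRNA1 and -0.20 under siRNA2, and that of all tested genes was 0.0073 and -0.0035. Well-counted genes were called more often, so 7 of the members, all but PSMB8 and PSMB9, were also set beside the 5642 genes with at least 40 CPM in control. Of these 7, 4 were called lower under each siRNA, against 31.9% of such genes under siRNA1 and 25.2% under siRNA2, while 24.5% and 29.1% of such genes were called higher and 56.4% and 54.3% in either direction, near the members' own share. In the mean of both siRNAs 4 of the 7 were called lower, against 30.6% lower, 28.4% higher and 59.1% in either direction among such genes. Both comparisons use the same control libraries, so their calls are not independent of each other. The members were chosen with earlier results of these data known, so their shares beside the background are a description only.

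**Figure D1:**
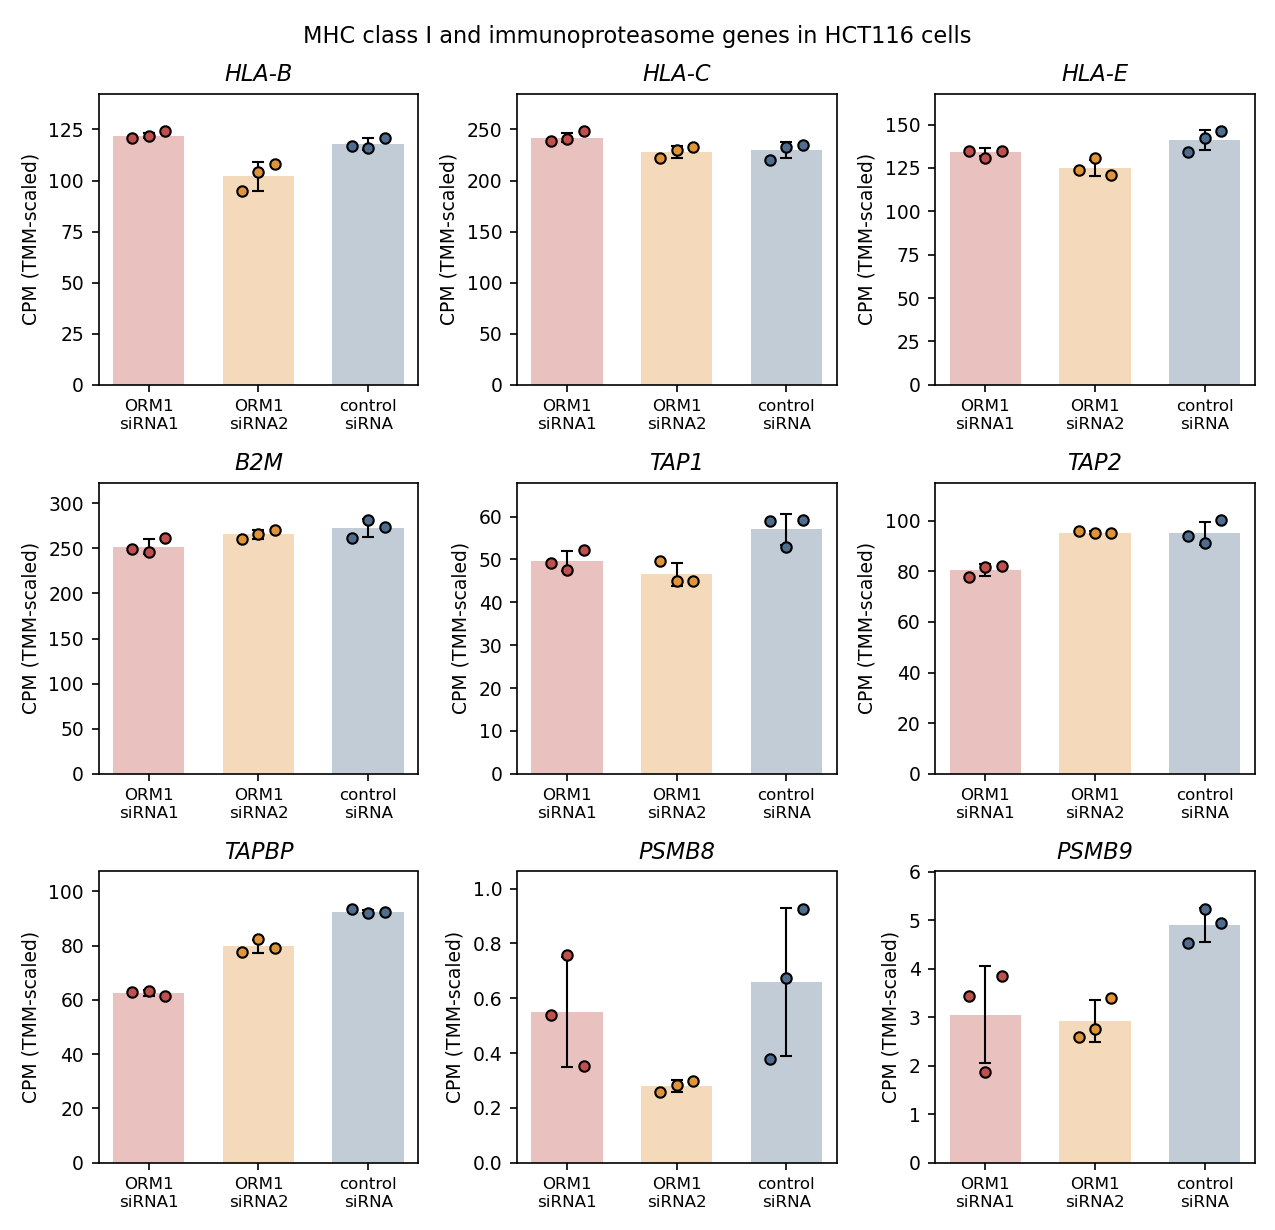
Level of each gene in TMM-scaled CPM (vertical axes, each from 0) in the 3 groups; points are the single libraries, bars the mean of 3 libraries and error bars the SD. The siRNA1 and siRNA2 points of TAP1, TAPBP and PSMB9 all lie below the control points, whereas HLA-C points of all groups lie between 220.4 and 248 CPM.

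Among the heavy chains, HLA-B and HLA-E were called lower under siRNA2, none was called under siRNA1, and HLA-C was called under neither siRNA. HLA-B, which presents peptides to T cells, had 121, 122 and 124 CPM under siRNA1 and 94.7, 104 and 108 CPM under siRNA2, against 117, 116 and 121 CPM in control. Every siRNA2 library lay below every control library, while the siRNA1 libraries lay just above the highest control library. The log2 change was 0.06 (SE 0.04, adjusted p = 0.39) under siRNA1 and -0.20 (SE 0.04, adjusted p = 0.00444) under siRNA2. The siRNAs differed directly, with HLA-B higher under siRNA1 than under siRNA2 by 0.26 on the log2 scale (SE 0.04, adjusted p = 0.00152).

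HLA-C, which also presents peptides and is the main class I ligand of the killer-cell immunoglobulin-like receptors, had 239, 240.2 and 248 CPM under siRNA1 and 222, 230.2 and 233 CPM under siRNA2, against 220.4, 233 and 235 CPM in control. The siRNA2 libraries lay within the control range and the siRNA1 libraries slightly above it. Its log2 change was 0.08 under siRNA1 (95% interval 0.006 to 0.15, adjusted p = 0.0978) and -0.01 under siRNA2 (-0.079 to 0.065, adjusted p = 0.916).

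HLA-E, the nonclassical chain read by NKG2 receptors of natural killer cells, had 135, 131 and 135 CPM under siRNA1 and 124, 131 and 121 CPM under siRNA2, against 134, 142 and 146 CPM in control. The siRNA2 libraries were all below control, and siRNA1 overlapped control at its lower edge. The log2 change was -0.07 (SE 0.04, adjusted p = 0.172) under siRNA1 and -0.17 (SE 0.04, adjusted p = 0.00617) under siRNA2. The difference between the siRNAs was 0.09 and was not called (95% interval 0.008 to 0.174, adjusted p = 0.132). In the mean of both siRNAs HLA-E fell by 0.12 (adjusted p = 0.0139), a call lost without control replicate 2 (adjusted p = 0.0576) or control replicate 3 (0.0906).

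B2M, the light chain without which no classical class I molecule is stable at the surface, had 249, 246 and 262 CPM under siRNA1 and 260.4, 266 and 270.3 CPM under siRNA2, against 262, 281 and 274 CPM in control. The highest siRNA1 library reached to just under the lowest control library, and siRNA2 overlapped control. B2M fell by 0.11 under siRNA1 (SE 0.03, adjusted p = 0.0269), and its log2 change under siRNA2 was -0.04 (SE 0.03, adjusted p = 0.508). The siRNA1 call was lost without siRNA1 replicate 1 (adjusted p = 0.0897) or 2 (0.116), without control replicate 2 (0.118) or 3 (0.0793), and with no count filter (0.0541). The heavy chains together had 498 ± 6.9 CPM under siRNA1 and 456 ± 13 CPM under siRNA2, against 488 ± 15 CPM in control (SD, n = 3 each).

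Of the transporter and its chaperone, TAPBP and TAP1 were called lower under both siRNAs and TAP2 under siRNA1. TAPBP ties the transporter to the waiting class I molecule. TAPBP had 62.9, 63.2 and 61.4 CPM under siRNA1 and 77.6, 82.3 and 79.1 CPM under siRNA2, against 93.3, 92.1 and 92.2 CPM in control. The groups were fully separated, with siRNA1 lowest, siRNA2 between and control highest. TAPBP fell by 0.57 under siRNA1 (SE 0.03, adjusted p = 1.2e-07) and by 0.22 under siRNA2 (SE 0.03, adjusted p = 0.000335), or -32.4% and -13.9% on the linear scale. It was also lower under siRNA1 than under siRNA2, with a log2 difference of -0.35 (SE 0.03, adjusted p = 1.78e-05). With each library left out in turn, the change ran between -0.57 and -0.56 under siRNA1 and between -0.24 and -0.20 under siRNA2, called each time.

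TAP1, an ATP-binding subunit of the peptide transporter, had 49.1, 47.5 and 52.2 CPM under siRNA1 and 49.6, 44.9 and 44.9 CPM under siRNA2, against 59.0, 52.8 and 59.1 CPM in control. All siRNA libraries lay below the lowest control library, although siRNA1 replicate 3 did so narrowly. TAP1 fell by 0.20 under siRNA1 (SE 0.06, adjusted p = 0.0202) and by 0.29 under siRNA2 (SE 0.06, adjusted p = 0.00238), and its difference between the siRNAs was not called (0.09, adjusted p = 0.33). The siRNA1 call was lost without siRNA1 replicate 1 (adjusted p = 0.0607) or 2 (0.0883) and without control replicate 1 (0.0746) or 3 (0.0803). The siRNA2 call and that of the mean of both siRNAs were kept in each of these fits.

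TAP2, the other subunit of the transporter, had 77.8, 81.6 and 82.1 CPM under siRNA1 and 96, 95 and 95 CPM under siRNA2, against 93.9, 91.3 and 100.1 CPM in control. The siRNA1 libraries lay apart below the others, and the siRNA2 libraries lay within the control range. TAP2 fell by 0.24 under siRNA1 (SE 0.04, adjusted p = 0.00042), and under siRNA2 its log2 change was 0.00 (95% interval -0.079 to 0.086, adjusted p = 0.964). The difference between the siRNAs was itself called, at -0.24 (SE 0.04, adjusted p = 0.000817). The mean of both siRNAs, at -0.12 (adjusted p = 0.0145), averages unlike responses and lost its call without control replicate 3 (adjusted p = 0.1). TAP1, TAP2 and TAPBP together summed to 193 ± 2.9 CPM under siRNA1 and 221 ± 2.2 CPM under siRNA2, against 245 ± 7.6 CPM in control (SD, n = 3 each).

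**Figure D2:**
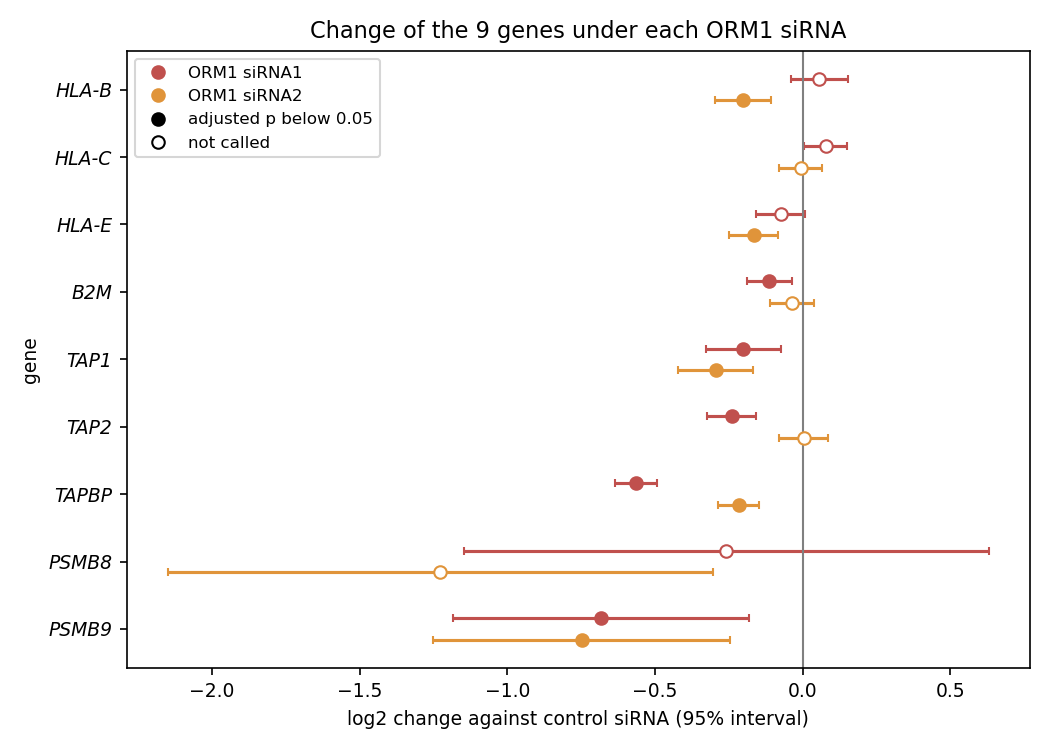
Log2 change of each gene against control (horizontal axis) under siRNA1 and siRNA2 from the edgeR fit, with 95% intervals; filled points were called at an adjusted p below 0.05. TAPBP, TAP1 and PSMB9 were called lower under both siRNAs, TAP2 and B2M under siRNA1, and HLA-B and HLA-E under siRNA2, and the intervals of PSMB8 and PSMB9 are the widest.

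PSMB9 (also known as LMP2), the interferon-induced subunit that replaces PSMB6, was scarce in control and lower under both siRNAs. It had 211, 131 and 261 counts under siRNA1 and 171, 184 and 239 under siRNA2, against 299, 326 and 327 in control, or 3.44, 1.87 and 3.84 CPM and 2.59, 2.76 and 3.4 CPM, against 4.53, 5.22 and 4.95 CPM. All siRNA libraries lay below all control libraries, with siRNA1 replicate 2 lowest of all. PSMB9 fell by 0.68 under siRNA1 (SE 0.23, adjusted p = 0.0402) and by 0.75 under siRNA2 (SE 0.23, adjusted p = 0.0297), and by 0.72 in the mean of both (SE 0.19, adjusted p = 0.0131).

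These PSMB9 calls were close to the threshold. The siRNA1 call was lost without siRNA1 replicate 1 (adjusted p = 0.0546), siRNA1 replicate 2 (log2 change -0.43, adjusted p = 0.0964), siRNA2 replicate 2 (0.0505) or control replicate 1 (0.0625), 2 (0.11) or 3 (0.092), and with no count filter (0.0924). The siRNA2 call was lost without siRNA2 replicate 1 (adjusted p = 0.102) or 2 (0.0886) or control replicate 1 (0.0504), 2 (0.0882) or 3 (0.0732), and with no count filter (0.0736). The call for the mean of both siRNAs was lost only without control replicate 2 (adjusted p = 0.0564) among the libraries left out. The change stayed negative in each of these fits.

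PSMB8 (LMP7), the subunit that replaces PSMB5, was near the limit of detection. It had 33, 53 and 24 counts under siRNA1 and 17, 19 and 21 under siRNA2, against 25, 42 and 61 in control. The siRNA1 libraries overlapped control, and the siRNA2 libraries lay below the lowest control library. The log2 change was -0.26 (SE 0.41, adjusted p = 0.701) under siRNA1 and -1.23 (SE 0.42, adjusted p = 0.0504) under siRNA2. The siRNA2 value passed the threshold in some alternatives, among them the fit without control replicate 1 (-1.50, adjusted p = 0.0206). Others were the fit without siRNA1 replicate 3 (0.0439) and DESeq2 (0.0418). It also moved away from the threshold. With single libraries left out, the log2 change under siRNA2 reached -0.90 and the adjusted p of the edgeR fit 0.207. In simulated counts for siRNA1 against control, 8% of genes with a mean of 20 to 100 counts were recovered at a fold of 3 and 0% at a fold of 2. That simulation changed 50 genes per fold and gave 4 calls, against 6389 in the data for this contrast. Its adjusted threshold was thus stricter, so these shares do not show which changes the data could call. PSMB8-AS1, a noncoding gene on the plus strand, has the record chr6:32844086-32846495, which overlaps those of PSMB8, TAP1 and PSMB9. PSMB8-AS1 averaged 0.431 CPM under siRNA1 and 0.367 CPM under siRNA2, against 0.221 CPM in control. It was called under neither siRNA (adjusted p = 0.2 and 0.367).

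The ratio of an immunoproteasome subunit to the constitutive subunit it replaces needs no scaling between libraries. PSMB9 counts were 4.77%, 2.44% and 4.86% of PSMB6 counts under siRNA1 and 3.72%, 3.51% and 4.11% under siRNA2, against 6.27%, 6.46% and 6.46% in control. All siRNA libraries lay below control, with log2 differences of -0.74 and -0.76. PSMB6 itself had 76.0 ± 3.6 CPM under siRNA1 and 77.0 ± 6.6 CPM under siRNA2, against 76.6 ± 4.3 CPM in control (SD, n = 3 each). In exact two-sided permutation tests the smallest p that 3 against 3 libraries allow is 0.1, which both comparisons reached, and the 6 siRNA libraries against the 3 control libraries gave p = 0.0238, again the smallest possible. After Benjamini-Hochberg adjustment over the 12 ratio tests the adjusted p of each was 0.24, and with so few libraries no ratio could have passed.

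PSMB8 counts were 0.427% ± 0.16 of PSMB5 counts under siRNA1 and 0.202% ± 0.02 under siRNA2, against 0.474% ± 0.19 in control (SD, n = 3 each). The siRNA1 libraries overlapped control, and the siRNA2 libraries lay below it (exact permutation p = 0.1, adjusted p = 0.24). PSMB10, the interferon-induced subunit that replaces PSMB7, was 2.85% ± 0.43 of PSMB7 under siRNA1 and 4.35% ± 0.59 under siRNA2, against 3.6% ± 0.81 in control (n = 3 each, exact permutation p = 0.2 for both). B2M counts were 50.3%, 49.8% and 51.7% of the summed heavy chains under siRNA1 and 59.1%, 57.2% and 58.4% under siRNA2, against 55.5%, 57.4% and 54.7% in control. The siRNA1 libraries lay below control (n = 3 each, exact permutation p = 0.1), and the siRNA2 libraries overlapped it (exact permutation p = 0.2).

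**Figure D3:**
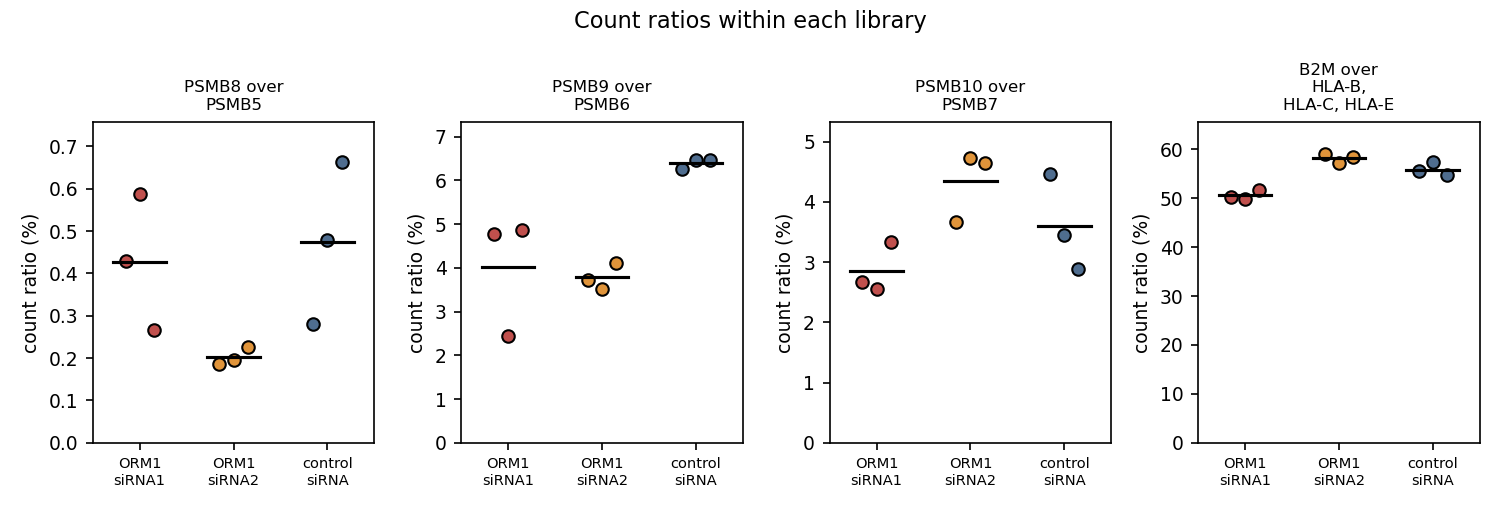
Count ratios within each library in percent (vertical axes, each from 0): PSMB8 over PSMB5, PSMB9 over PSMB6, PSMB10 over PSMB7 and B2M over the sum of HLA-B, HLA-C and HLA-E, by group; points are libraries and lines the means of 3. The PSMB9 ratio was 2.44% to 4.86% in the siRNA libraries and 6.27% to 6.46% in control, whereas PSMB10 over PSMB7 overlapped control under both siRNAs.

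The other genes of the pathway did not move as a block. Their counts of calls are read beside the shares of all tested genes called in either direction, 30.5% under siRNA1 and 26.7% under siRNA2. Of genes with at least 40 CPM in control, 56.4% and 54.3% were called. Most of these lists hold genes on both sides of 40 CPM, so neither share is a like background for a whole list. Of 9 further loading and trimming genes, 2 rose and 2 fell under siRNA1, with a median log2 change of 0.01, and 4 rose and 1 fell under siRNA2, with a median of 0.06. Calreticulin (CALR), a lectin chaperone of the loading complex, rose, with 699 ± 19 CPM under siRNA1 and 744 ± 16 CPM under siRNA2, against 614 ± 20 CPM in control (log2 changes 0.19 and 0.28, adjusted p = 0.000619 and 3.65e-05). Calnexin (CANX), which acts on the heavy chain before calreticulin, had 833 ± 3.1 CPM under siRNA1 and 891 ± 18 CPM under siRNA2, against 812 ± 13 CPM in control, with log2 changes of 0.04 (adjusted p = 0.289) and 0.13 (adjusted p = 0.00109). ERAP2, an aminopeptidase that trims peptides in the endoplasmic reticulum, had 1.83 ± 0.63 CPM under siRNA1 and 1.99 ± 0.24 CPM under siRNA2, against 3.35 ± 0.42 CPM in control, and fell by 0.87 and 0.75 (adjusted p = 0.0138 and 0.0325). The ERAP2 call under siRNA1 was lost without control replicate 2 (adjusted p = 0.0544), and that under siRNA2 without siRNA2 replicate 2 or 3 or control replicate 2 or 3 (up to 0.111) and with no count filter. TAPBPL, the tapasin-related editor, fell by 1.06 under siRNA1 (0.813 ± 0.075 CPM against 1.70 ± 0.29 CPM in control, adjusted p = 0.0047) and had a log2 change of -0.64 under siRNA2 (1.09 ± 0.25 CPM, adjusted p = 0.0652), which was called without siRNA2 replicate 1 (adjusted p = 0.0365).

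Among the 8 constitutive catalytic subunits and assembly factors, 1 rose under siRNA1 and 2 under siRNA2, and none fell in the edgeR fit. The constitutive subunits PSMB5, PSMB6 and PSMB7 were not called under either siRNA in this fit. PSMB5 had 129 ± 3.8 CPM under siRNA1 and 139 ± 6.0 CPM under siRNA2, against 138 ± 2.9 CPM in control, and was called lower under siRNA1 without siRNA1 replicate 3 or siRNA2 replicate 2 or 3 (adjusted p down to 0.0374) and with DESeq2, no scaling, the minimum of 1 CPM or only the groups compared. PSMB7 had 129.6 ± 7.2 CPM under siRNA1 and 129.8 ± 5.8 CPM under siRNA2, against 140 ± 6.8 CPM in control, and was called lower under siRNA2 with no scaling (adjusted p = 0.0392). The assembly chaperone PSMG1 rose by 0.19 and 0.39 (adjusted p = 0.0132 and 0.000117), the siRNA1 call being lost without siRNA1 replicate 1 or 3 (adjusted p up to 0.0639). PSMG4, a chaperone of the same pathway, rose by 0.44 under siRNA2 (adjusted p = 0.0136), a call lost without siRNA2 replicate 3 or control replicate 2 (up to 0.0566).

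Of the 6 remaining immunoproteasome and activator genes, 0 rose and 3 fell under siRNA1, and 2 rose and 1 fell under siRNA2. PSME2, a subunit of the interferon-induced 11S activator, had 58.9, 60.2 and 59.5 CPM under siRNA1 and 63.2, 67.5 and 70.0 CPM under siRNA2, against 72.7, 83.3 and 84.6 CPM in control. All siRNA libraries lay below control, and PSME2 fell by 0.43 and 0.26 (adjusted p = 9.97e-05 and 0.00391). Its partner PSME1 had a log2 change of 0.05 under siRNA1 (adjusted p = 0.438) and rose by 0.23 under siRNA2 (adjusted p = 0.00137). PSME4, the separate nuclear activator, fell by 0.26 under siRNA1 (adjusted p = 0.000533) and had a log2 change of -0.11 under siRNA2 (adjusted p = 0.069), which was called without siRNA2 replicate 2 (0.0483) and with DESeq2 (0.0279), no scaling (0.0338) or the minimum of 1 CPM (0.0465). PSMB10, which lies on chromosome 16 outside the MHC region, had 3.71 ± 0.69 CPM under siRNA1 and 5.67 ± 1.0 CPM under siRNA2, against 5.01 ± 0.87 CPM in control (SD, n = 3 each), and was called under neither siRNA. Without siRNA1 replicate 3 it was called lower under siRNA1 (log2 change -0.60, adjusted p = 0.0478).

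Of 16 transcription factors known to act on class I promoters, 4 rose and 7 fell under siRNA1, with a median log2 change of -0.07, and 3 rose and 6 fell under siRNA2, with a median of -0.11. These are 11 and 9 of 16 called, against 56.4% and 54.3% of genes with at least 40 CPM and 30.5% and 26.7% of all tested genes. NLRC5, the class I transactivator, was not called, with 8.37, 7.94 and 6.42 CPM under siRNA1 and 8.68, 6.04 and 6.26 CPM under siRNA2, against 9.05, 6.49 and 8.07 CPM in control. The groups overlapped, and the log2 changes were -0.06 (SE 0.17, adjusted p = 0.857) and -0.17 (SE 0.17, adjusted p = 0.537). IRF1, an interferon-induced factor that binds the interferon-response motif, had 13.2, 16.1 and 16.5 CPM under siRNA1 and 15.1, 15.3 and 14.9 CPM under siRNA2, against 21.9, 20.7 and 23.1 CPM in control. The siRNA libraries lay apart from control, and IRF1 fell by 0.52 and 0.54 (adjusted p = 0.000738 and 0.000682).

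STAT2, a transcription factor of type I interferon signalling, had 46.1, 45.8 and 48.0 CPM under siRNA1 and 48.0, 47.3 and 45.9 CPM under siRNA2, against 65.5, 64.6 and 59.8 CPM in control. It fell by 0.44 and 0.43 (adjusted p = 1.07e-05 and 1.87e-05). IRF2, which competes with IRF1 for the same motif, fell by 0.61 and 0.34 (adjusted p = 0.0015 and 0.0439). Its siRNA2 call was lost without siRNA1 replicate 2 or 3, siRNA2 replicate 2 or 3 or control replicate 1 or 3, with adjusted p-values up to 0.184, and with no count filter. RFXAP, a subunit of the RFX complex at class I and class II promoters, rose by 0.48 and 0.62 (adjusted p = 0.018 and 0.00498), the siRNA1 call being lost without siRNA1 replicate 2 or 3 or control replicate 1 (up to 0.0719).

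Of 12 interferon receptor, kinase and brake genes, 0 rose and 6 fell under each siRNA, with median log2 changes of -0.14 and -0.18. That is 6 of 12 called, all lower, against 30.5% and 26.7% of all tested genes called in either direction and 14.8% and 12.6% called lower. Of this list only IFNGR2, IFNAR1, JAK1, TYK2 and PTPN1 reached 40 CPM in control. Among all genes at that level 56.4% and 54.3% were called in either direction and 31.9% and 25.2% lower. JAK1, the kinase shared by the type I and type II interferon receptors, had 107, 109 and 110.1 CPM under siRNA1 and 115, 116 and 105 CPM under siRNA2, against 146, 138 and 138 CPM in control. All siRNA libraries were below control, and JAK1 fell by 0.37 and 0.32 (adjusted p = 2.81e-05 and 9.94e-05). TYK2, the second kinase of the type I receptor, fell by 0.31 and 0.37 (adjusted p = 0.000104 and 3.74e-05), and the receptor chain IFNAR1 by 0.32 and 0.31 (adjusted p = 0.000287 and 0.000409). JAK2, which serves the interferon gamma receptor, fell by 0.37 and 0.28 (adjusted p = 0.00579 and 0.0266), with the siRNA2 call lost without siRNA2 replicate 2 or 3 or any 1 of the control libraries (up to 0.0936).

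**Figure D4:**
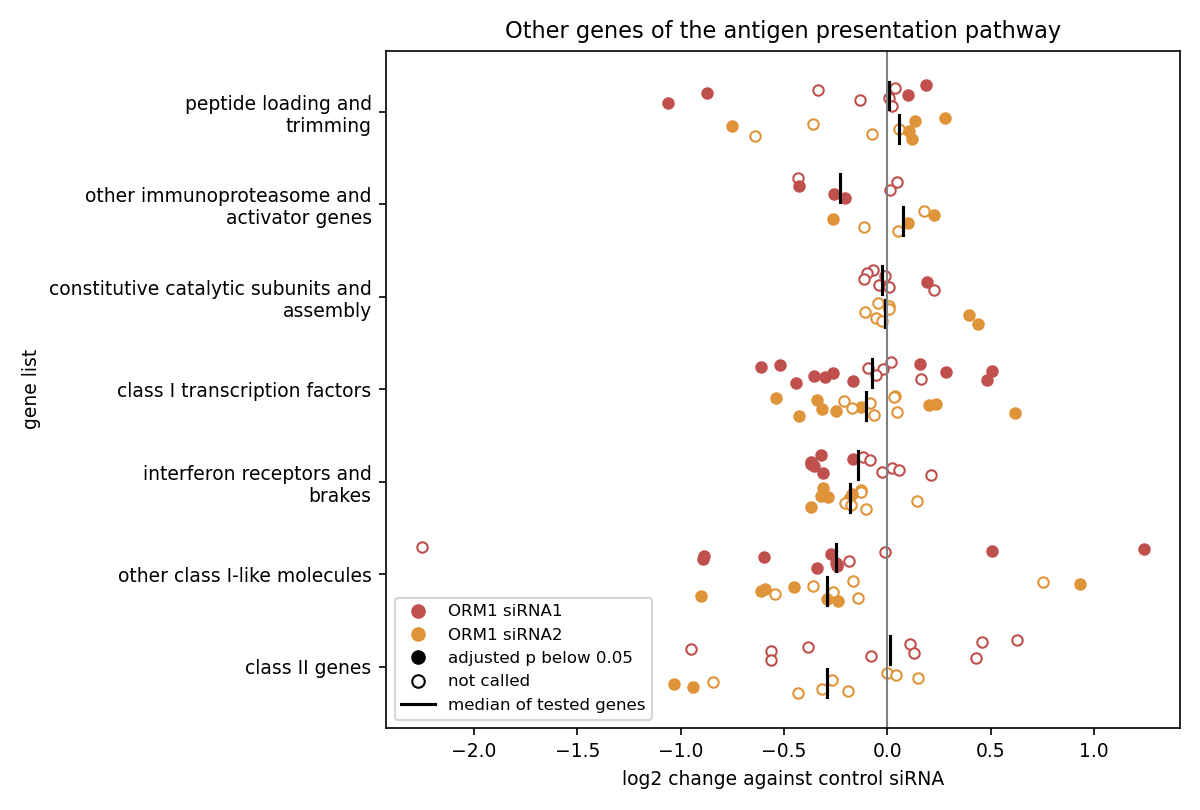
Log2 change against control (horizontal axis) of the other genes of the pathway in 7 lists under siRNA1 and siRNA2; each point is a tested gene, filled where called at an adjusted p below 0.05, and vertical strokes are list medians. No interferon receptor or brake gene was called higher, whereas loading and trimming genes were called in both directions.

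Class I-like molecules with other roles were called in both directions. Of 14 such genes 13 passed the count filter, of which 2 rose and 6 fell under siRNA1 and 1 rose and 6 fell under siRNA2, with median log2 changes of -0.25 and -0.29. These 8 and 7 calls of 13 are above the 30.5% and 26.7% of all tested genes called in either direction. Of this list only MICA and MICB reached 40 CPM in control, with means of 40.1 and 85.6 CPM. The 56.4% and 54.3% of genes at that level are therefore not a like background for it. MICB, a stress-induced ligand of the receptor NKG2D, had 44.6, 46.9 and 47.5 CPM under siRNA1 and 57.0, 58.0 and 55.3 CPM under siRNA2, against 82.1, 85.9 and 88.8 CPM in control. The groups were fully separated, with siRNA1 lowest, and MICB fell by 0.89 and 0.59 (adjusted p = 2.15e-08 and 9.69e-07). MR1, which presents vitamin B metabolites to mucosal-associated invariant T cells, had 10.0 ± 0.71 CPM under siRNA1 and 9.95 ± 0.85 CPM under siRNA2, against 15.2 ± 0.93 CPM in control, and fell by 0.60 and 0.61 (adjusted p = 0.000529 and 0.000532).

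HFE, a regulator of iron uptake that needs B2M for its surface expression, rose, with 11, 12.1 and 12.2 CPM under siRNA1 and 15.3, 15.3 and 16.7 CPM under siRNA2, against 7.99, 7.60 and 9.20 CPM in control. The groups were fully separated, with siRNA2 highest, and the rises were 0.51 and 0.93 (adjusted p = 0.00162 and 2.16e-05). FCGRT, the neonatal Fc receptor chain, rose by 1.24 under siRNA1 from few counts (39, 98 and 57 under siRNA1, against 28, 21 and 30 in control, adjusted p = 0.0131), and this call was lost without siRNA1 replicate 2 (adjusted p = 0.08). Of 11 class II genes 10 passed the filter, and 0 were called under siRNA1 and 2 fell under siRNA2. Among them HLA-DPA1, a class II alpha chain, had 51, 37 and 61 counts under siRNA1 and 42, 32 and 36 under siRNA2, against 69, 94 and 52 in control. HLA-DPA1 fell by 1.03 under siRNA2 (adjusted p = 0.0305), a call lost without siRNA2 replicate 2 or 3 or control replicate 1 or 2 (adjusted p up to 0.146) and with limma-voom or no count filter.

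Between the siRNAs, HLA-B was called higher under siRNA1, 1 of 9, against 8.09% of all tested genes, and TAP2 and TAPBP lower, 2 of 9, against 9.83%. That is 3 of 9 in either direction, against 17.9%. All 3 are among the 7 members with at least 40 CPM in control, and of all genes at that level 13.4% were called higher, 25.9% lower and 39.3% in either direction. The members' share at that level was close to this background. All 9 members together summed to 947 ± 18 CPM under siRNA1 and 947 ± 17 CPM under siRNA2, against 1010.7 ± 25 CPM in control (SD, n = 3 each).

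Genes whose levels followed the supply components (TAP1, TAP2, TAPBP, PSMB8 and PSMB9, as the mean of their standardised log2 CPM) most closely over the 9 libraries were ATP6AP1, SERINC1 and DIABLO, with Pearson r of 0.99, 0.99 and 0.986. ATP6AP1, an accessory subunit of the vacuolar proton pump, had 69.6 ± 1.9 CPM under siRNA1 and 75.6 ± 1.5 CPM under siRNA2, against 97.8 ± 5.4 CPM in control. The mean of the class I chains (HLA-B, HLA-C, HLA-E and B2M) was followed most closely by ARHGDIA, EML2 and TNNI3, with r of 0.952, 0.946 and 0.937. The averaged genes did not all vary alike. Between pairs of supply components r ran from -0.134 (TAP2 with PSMB8) to 0.861 (TAP2 with TAPBP). Between pairs of class I chains it ran from -0.208 (HLA-C with B2M) to 0.676 (HLA-B with HLA-C). ARHGDIA had 309 ± 5.2 CPM under siRNA1 and 295 ± 11 CPM under siRNA2, against 314 ± 7.5 CPM in control. These genes are the highest of 11532 compared, the libraries fall into 3 groups that all of them share, and the r values are descriptions of likeness only.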

How the data were processed

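RNA of HCT116 cells was sequenced in 9 libraries, 3 per group. The deposited table holds raw counts per Ensembl gene identifier, not normalised by the authors per the labels. Build hg19 is named in the submitters' processing notes. The sources used here do not give the aligner, counter, annotation, strand setting or siRNA sequences. Low values favoured 4 (11894 values, against 6787 of 3 and 4317 of 5), so a count may not be 1 fragment. Depth was 60698684 to 71431723 counts per library, and intervals cover the spread between these libraries. A gene record was found for 61757 of 61806 identifiers, and 26220 had 0 counts throughout.

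Genes passing edgeR's filterByExpr (20932) were scaled by TMM (factors 0.985 to 1.014) and fitted in 1 quasi-likelihood model of all 9 libraries in edgeR 4.0.16 (R 4.3.3), with a common biological coefficient of variation of 0.147. Calls used Benjamini-Hochberg adjusted p below 0.05. Contrasts were each siRNA, and their mean, against control, and siRNA1 against siRNA2. Ratios were compared by exact permutation in scipy 1.17.1. GENCODE 29 (GRCh38) gave positions and lengths, the median over principal transcripts, and RefSeq (GRCh38.p14) gave promoters, compared with Biopython 1.88. Python 3.11.15, pandas 2.3.3, numpy 2.4.6 and matplotlib 3.10.9 were also used. In simulated counts for siRNA1 against control, 50 genes per fold of 1.25, 1.5, 2 and 3, with a mean of at least 100 counts among 20932, were recovered to 38%, 66%, 88% and 98%. Of 157 calls there 12 were false. The data gave 6389 calls in this contrast, so the adjusted threshold was stricter in the simulation. Its recovery is therefore not that of the data.

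The members and lists were chosen with earlier results of these data known. Named genes are the members, ORM1, up to 4 called genes per other list with the largest change in the mean of both siRNAs, the constitutive subunits, PSMB10, NLRC5 and IRF1, and the 3 genes most like each profile. The result of 1 further gene of this rule is not reported here. ORM2 and PSMB8-AS1 were added because their reads may be shared with a named gene, and single markers to describe their lists. Alternatives were DESeq2 1.42.0, limma-voom (limma 3.58.1), RLE or no scaling, no count filter or a minimum of 1 CPM in 3 libraries, only the groups compared, a replicate block, and each library left out. No 2 libraries of a group agreed within counting noise, so none was taken as a duplicate deposit.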

Additional observations from a re-analysis of the deposited data

Results flagged for a closer look

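The genes given here differed directly between the siRNAs, in the edgeR contrast of siRNA1 against siRNA2 with Benjamini-Hochberg adjusted p below 0.05. Among the members, HLA-B was higher under siRNA1 by 0.26 on the log2 scale, TAP2 lower with -0.24 and TAPBP lower with -0.35. Among the other named genes of the pathway, all were lower under siRNA1, with log2 differences of -0.29 for MICB, -0.43 for HFE, -0.61 for PSMB10, -0.20 for PSMG1, -0.18 for PSME1, -0.14 for PSME4 and -0.10 for CANX. MICB fell under both siRNAs and HFE rose under both, so these differ in size. The differences of PSMB10, PSME4, PSMG1 and CANX lost their call when single libraries were left out, with adjusted p-values up to 0.142, 0.113, 0.0679 and 0.0535, whereas those of HLA-B, TAP2, TAPBP, MICB, HFE and PSME1 were kept each time. PSMB10 lost it without siRNA1 replicate 1 or 2, siRNA2 replicate 2 or 3 or control replicate 2. PSME4 lost it without siRNA1 replicate 2 or 3 or siRNA2 replicate 1 or 2. PSMG1 lost it without siRNA1 replicate 2 or siRNA2 replicate 2, and CANX without siRNA1 replicate 2. With no scaling factors the differences of CANX and PSME4 were not called either (adjusted p = 0.0547 and 0.0915). With no count filter those of PSMB10 and PSME4 were not called (0.0885 and 0.0585).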

How the results depend on the processing

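TAPBP kept its call in each contrast under each alternative, as did HLA-B, HLA-E and TAP1 under siRNA2 and TAP2 under siRNA1. With no count filter 3 of 9 members were called under siRNA1, where more genes entered the adjustment. With single libraries left out, 2 to 5 members were called under siRNA1, 4 to 6 under siRNA2, 3 to 6 in the mean of both siRNAs and 3 each time between the siRNAs, and fewer samples entered those fits. All counts of calls over all genes stayed within 1.5 times the reported count. Values that turned their sign were those of genes that were not called. Without scaling factors the log2 change under siRNA2 was -0.0263 for TAP2, -0.023 for PSMB5 and -0.0223 for PSMB6, and with a minimum of 1 CPM in 3 libraries it was -0.0032 for TAP2. With limma-voom the log2 difference of PSMB9 between siRNA1 and siRNA2 was -0.0086. The cause of these was not tested.

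With single libraries left out, the log2 change under siRNA1 ran from -0.5626 to 0.0669 for PSMB8, from -0.0504 to 0.0313 for PSMB6 and from -0.1759 to 0.0575 for NLRC5. Under siRNA2 it ran from -0.0345 to 0.0155 for HLA-C, from -0.0234 to 0.0428 for TAP2, from -0.025 to 0.0374 for PSMB5 and from -0.0474 to 0.0755 for PSMB6. The difference of PSMB9 between siRNA1 and siRNA2 ran from -0.1419 to 0.32. The log2 ratio of PSMB8 over PSMB5 under siRNA1 against control ran from -0.4725 to 0.1689, and that of PSMB10 over PSMB7 for the mean of both siRNAs from -0.1677 to 0.1493.

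The libraries share replicate numbers, and the labels do not say whether these pair the libraries. Same-numbered libraries did not deviate together from their group means, with correlations of -0.019 to 0.037. Such correlations cannot show whether the libraries were handled together. With the number as a block, 6 members were called under siRNA1, 5 under siRNA2, 6 in the mean of both and 4 between the siRNAs, with HLA-C added under siRNA1 and between the siRNAs (log2 0.0783 and 0.085) and B2M in the mean (-0.0744). Among the other genes the block added PSMB7 under siRNA1 and siRNA2 (-0.1118 and -0.1087) and PSME4 under siRNA2 (-0.1118), and the calls of IRF2 (-0.3437) and HLA-DPA1 (-1.0356) under siRNA2 and of PSMB10 between the siRNAs (-0.6119) were lost. The fit of only the groups compared was not made for the mean of both siRNAs, which uses all groups. Depth limits genes such as PSMB8, HLA-DPA1, FCGRT, ORM1, ORM2 and PSMB8-AS1, which had fewer than 100 counts in each library.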
